A study of Mus musculus with 9 samples.

Results

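The genes described here are 10 members of the ETS family of transcription factors, Etv4, Etv5, Etv3, Etv6, Ets1, Ets2, Fli1, Gabpa, Elk3 and Elk4. They were chosen by gene symbol, out of 37022 genes with a value in the deposited tables, and each was followed on the annotated transcript of the gene that carried the largest mean signal over the 9 libraries. Nascent RNA, the RNA made while the cells were being fed a clickable uridine analogue, 5-ethynyl uridine, was captured from mouse CD8+ T cells, the lymphocytes that kill infected and tumour cells. The labels give 3 groups of 3 libraries: Acute (acute stimulation), Chronic (chronic stimulation) and ChronicMEKi (chronic stimulation with inhibition of MEK, the kinase directly above ERK in the MAP kinase cascade). All 9 libraries are of CD8+ T cells labelled in culture. The labels do not give the length or manner of stimulation, the inhibitor and its dose, the strain, genotype or age of the mice, or whether replicates came from separate animals or cultures, so the p-values measure only the spread between these libraries. The study set the groups side by side in connection with T cell exhaustion.

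ETS factors share a DNA-binding domain that recognises a GGAA core, and several of them are direct substrates of ERK, or have genes that are switched on when ERK is active. Etv4 and Etv5 belong to the PEA3 subfamily, whose transcription is a familiar readout of ERK signalling and is held down by the repressor Capicua (Cic) when ERK is low. Elk3 and Elk4 are ternary complex factors, which bind DNA together with serum response factor (Srf), whereas Ets1, Fli1 and Gabpa are among the ETS factors that T cells express most steadily.

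The deposited unit is signal per annotated transcript, in one table read here as the gene body and another read here as the pause region, the stretch close to the transcription start. Values below are this signal after scaling between libraries. Deposited gene-body totals over 1 row per gene were 48601757 to 52216192 per library, and depth in reads is unknown. Pearson correlations of log2 signal were 0.959 to 0.984 in the 9 pairs of libraries within groups and 0.910 to 0.954 in the 27 pairs between groups. Rows of a ribosomal RNA-like locus took 19.1% to 22.3% of gene-body signal in Acute, 34.2% to 40.6% in Chronic and 29.0% to 36.1% in ChronicMEKi libraries. When libraries were scaled by their totals, the median gene shifted by -0.49 on the log2 scale between Chronic and Acute, and by -0.47 on the deposited scale. Against the labelled cell type, all 8 listed CD8+ T cell markers passed the filter on low signal. Their summed signal was 18986 to 21082 in Acute, 13649 to 14126 in Chronic and 15884 to 18050 in ChronicMEKi libraries. Of the 5 B cell markers, 2 passed, with sums of 534 to 565, 189 to 219 and 160 to 435 in the same order of groups. Of the 6 myeloid markers, 2 passed (sums of 107 to 262 over all libraries), and erythroid and platelet markers summed to at most 21.2, with none passing. All 3 listed markers of other T cells that had a row passed, with sums of 1506 to 1704 in Acute, 1199 to 1590 in Chronic and 2128 to 2364 in ChronicMEKi libraries. Between Chronic and Acute 2 of these 3 were called lower, and with MEK inhibition 2 were called higher and 1 lower. Of the 8 CD8+ T cell markers, 5 were called lower between Chronic and Acute, and 3 higher and 1 lower with MEK inhibition. Of the 2 B cell markers that passed, 1 was called lower and then 0 in either direction. Over all genes tested, 33.9% and 17.6% were called in these comparisons. Of the 3 NK cell markers 1 passed, Eomes, which CD8+ T cells also express. The part of these shifts in the results below was not tested, and in bulk RNA fewer cells of a type and less RNA per cell cannot be told apart.

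Stretches just before annotated starts are printed for the 4 members that were called with MEK inhibition and have a printable entry in the RefSeq promoter table (build GRCm38.p6), since signal of these genes moved with the inhibitor and GGAA is the core that the family itself binds. Capitals mark GGAA, or its reverse complement TTCC, on the strand of the gene, and each is written 5′ to 3′. The Etv5 stretch is chr16:22439720-22439820 (minus strand), the Etv3 stretch chr3:87525328-87525406 (plus), the Elk3 stretch chr10:93311160-93311409 (minus) and the Elk4 stretch chr1:132007370-132007606 (plus).
Etv5: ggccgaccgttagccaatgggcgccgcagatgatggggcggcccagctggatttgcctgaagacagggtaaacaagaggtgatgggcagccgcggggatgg
Etv3: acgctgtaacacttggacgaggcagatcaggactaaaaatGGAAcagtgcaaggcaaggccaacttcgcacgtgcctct
Elk3: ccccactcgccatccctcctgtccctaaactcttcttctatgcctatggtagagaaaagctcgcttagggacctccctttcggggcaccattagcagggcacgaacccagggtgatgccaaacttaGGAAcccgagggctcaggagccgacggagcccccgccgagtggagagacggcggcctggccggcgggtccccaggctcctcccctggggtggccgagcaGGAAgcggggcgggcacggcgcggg
Elk4: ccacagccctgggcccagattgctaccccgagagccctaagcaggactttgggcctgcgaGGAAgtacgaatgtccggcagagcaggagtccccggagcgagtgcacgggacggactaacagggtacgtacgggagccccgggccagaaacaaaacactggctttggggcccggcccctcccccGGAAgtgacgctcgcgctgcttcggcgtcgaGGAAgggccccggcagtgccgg
The table holds entries for 7 of the 10 members, and windows of 300 bases around the RefSeq start (250 before and 50 after) were searched on both strands. GGAA was found in 96.0% of the 32851 windows of all genes, and CCGGAA, a longer form of the ETS core, in 14.9%. The window at the upstream Etv5 start held 0 copies of GGAA, whereas the window of the other RefSeq start of Etv5, further downstream, held 6. The Etv3 window held 7 copies and the Elk3 window 2. The first of 3 Elk4 windows held 4 copies of GGAA and 1 of CCGGAA, and the Gabpa window 5 and 1. The letters TGAATGAA and TGAATGGA, bound by Capicua, stood in 1.30% and 1.21% of all windows, the CArG box of serum response factor stood in 1.63%, and these stood in 0 member windows. These are matches of letters within those windows and say nothing of binding.

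In the gene body, chronic stimulation raised 4 of the 10 members (Etv5, Etv4, Ets2 and Elk3), lowered 4 (Elk4, Etv3, Gabpa and Ets1), and 2 (Fli1 and Etv6) were not called, by limma with Benjamini-Hochberg adjustment over 15942 genes. Over all genes tested, 33.9% were called in that comparison, 18% higher and 15.9% lower. With MEK inhibition under chronic stimulation, 5 members fell (Etv5, Etv4, Etv3, Ets2 and Elk3), 1 rose (Elk4) and 4 were not called, beside 17.6% of all genes called, 9.93% higher and 7.65% lower. Set against Acute, ChronicMEKi libraries had 5 members lower (Etv3, Etv5, Elk4, Ets1 and Elk3), 0 higher and 5 not called, beside 25.8% of all genes, 14.4% higher and 11.5% lower. The median log2 change of the members was 0.01, -0.30 and -0.30 in these comparisons, and that of all genes tested was -0.02, 0.04 and 0.00. The groups did not overlap for 4 members higher and 4 lower between Chronic and Acute (44.2% of all genes tested), 1 higher and 5 lower between ChronicMEKi and Chronic (32.2%), and 1 higher and 6 lower between ChronicMEKi and Acute (42%). The comparisons share libraries, so their values stand side by side and are not independent. Scaled by library totals, the split between Chronic and Acute was 1 higher and 6 lower, beside 49.8% of all genes called, and the deposited scale gave the same split beside 49.2%.

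**Figure D1:**
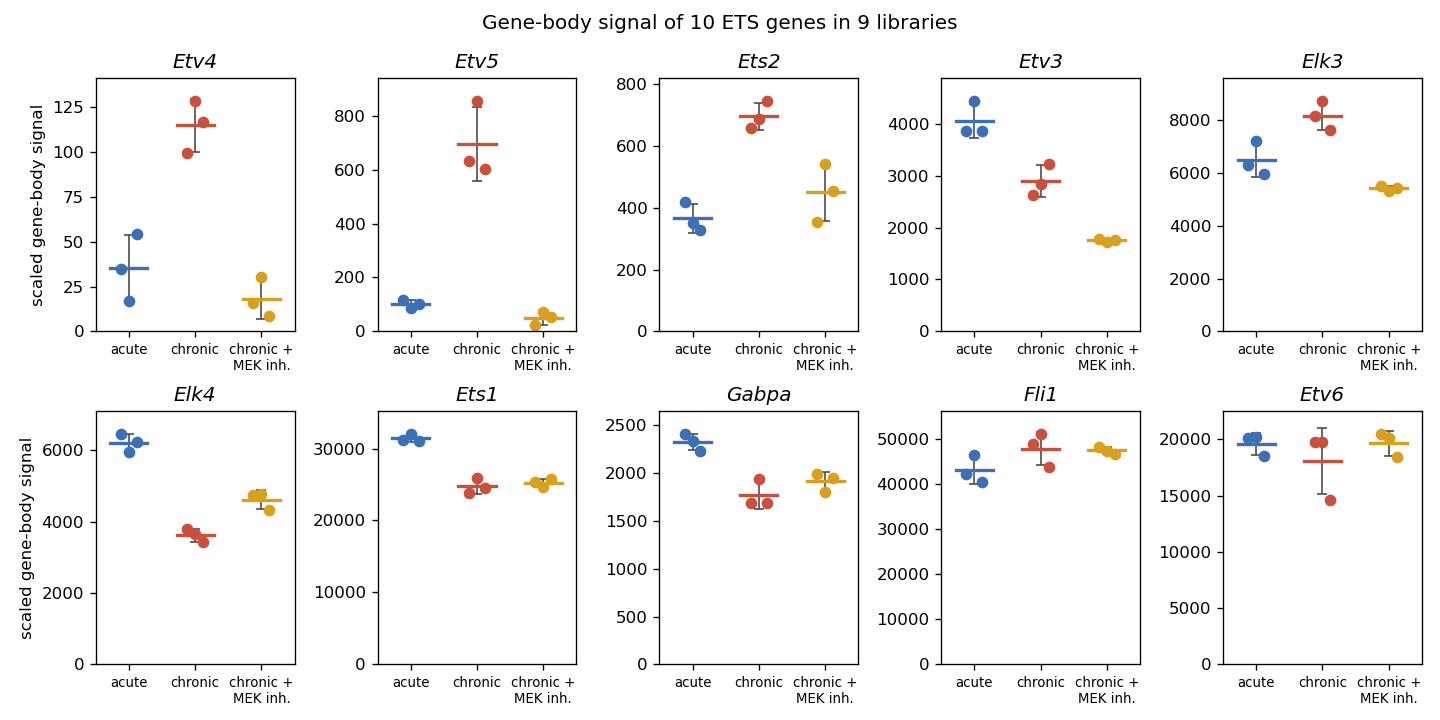
Scaled gene-body signal of each gene in every library (points), by group, with the group mean (bar) and SD (n = 3); each panel has its own axis from 0. The 3 Chronic libraries lie above all others for Etv4, Etv5, Ets2 and Elk3, and the 3 ChronicMEKi libraries lie below all others for Etv3, Etv5 and Elk3.

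**Figure D2:**
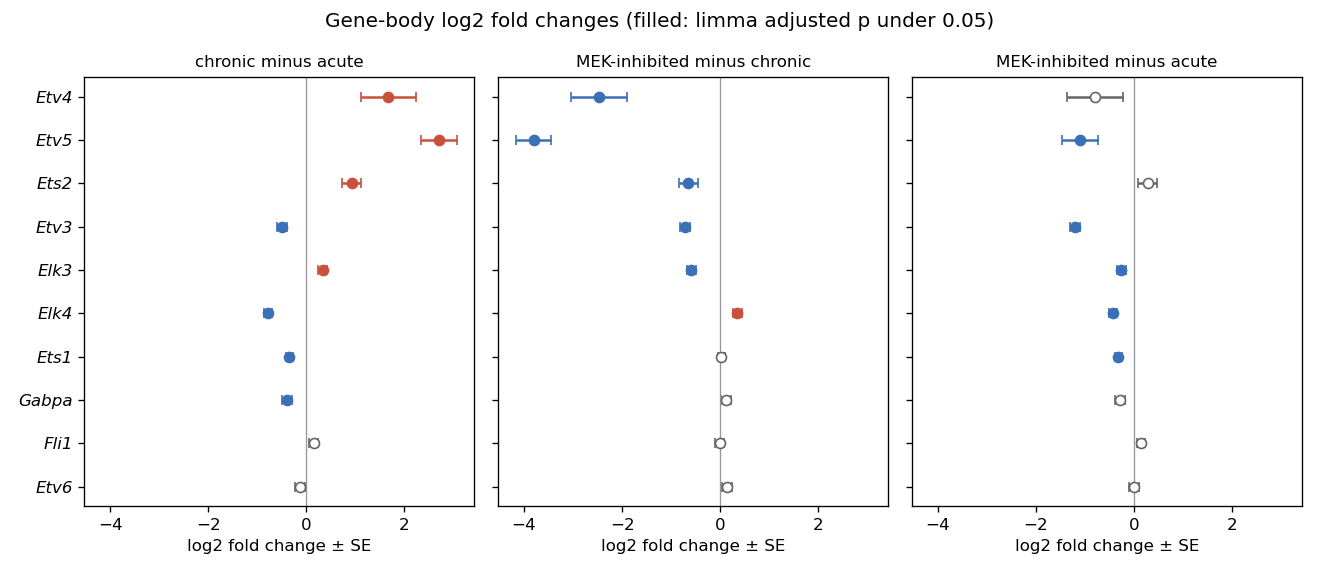
Gene-body log2 fold change ± SE of each gene in the 3 comparisons; filled points had a limma adjusted p under 0.05 and open points did not. Etv5 and Etv4 have the largest changes between Chronic and Acute (2.70 and 1.68) and between ChronicMEKi and Chronic (-3.80 and -2.47).

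The PEA3 genes Etv4 and Etv5 were weak in Acute libraries, rose in Chronic libraries and fell with MEK inhibition. Etv5, an activator whose gene is induced by receptor tyrosine kinase and ERK signals, lies on the minus strand at chr16:22381309-22439719. Its signal was 117, 88.5 and 99.9 in the Acute libraries, 631, 853 and 603 in the Chronic libraries, and 22.4, 71.3 and 53.1 in the ChronicMEKi libraries. Every Chronic library was above every other library, and every ChronicMEKi library was below every Acute library. The mean was 6.83-fold higher in Chronic than in Acute (log2 change 2.70, SE 0.36, limma adjusted p = 1.17e-05), and ChronicMEKi was lower than Chronic by a log2 change of -3.80 (SE 0.36, limma adjusted p = 4.54e-07). Both calls held under each alternative tried. Between ChronicMEKi and Acute the log2 change was -1.10 (SE 0.36, limma adjusted p = 0.0322). That last call was lost without Acute replicate 1 (limma adjusted p = 0.0849) or 3 (0.0566), with no filter (0.0727) or with those groups alone in the fit (0.112), and without ChronicMEKi replicate 1 the change was -0.72 (0.134).

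The 5 annotated Etv5 transcripts with a row covered different stretches of the gene, and the signal was not spread evenly over them. A row near the 5′ end (chr16:22412924-22439570) held 1.30 units of signal per kb of annotated span in Acute, 14.6 in Chronic and 1.02 in ChronicMEKi libraries. A row further downstream (chr16:22383579-22401829) held 2.70, 6.28 and 0.421 per kb. The log2 change between Chronic and Acute was thus 3.36 (SE 0.54) in the former and 1.12 (SE 0.57, limma adjusted p = 0.142) in the latter, whereas that between ChronicMEKi and Chronic was -3.90 and -3.27. Between ChronicMEKi and Acute the upstream row was not called (limma adjusted p = 0.511) and the downstream row was (0.00912). The difference between rows was not tested. Both rows held weak signal and passed the filter only because the Chronic libraries, where their mean is highest, were counted. The filter thus favoured a rise in Chronic, and the tests of these rows are not independent of it.

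Etv4, the other PEA3 gene measured above the filter, lies at chr11:101769747-101785371 (minus strand) and had weak signal. It gave 34.6, 17 and 54.4 in Acute, 99.2, 128 and 117 in Chronic, and 16.0, 30.6 and 8.33 in ChronicMEKi libraries. All Chronic libraries were above all others, and the Acute and ChronicMEKi libraries overlapped. Etv4 passed the filter mainly through the Chronic libraries, where it is high, and it was not tested with Acute and ChronicMEKi libraries alone in the fit. The filter thus favoured a rise in Chronic, and the tests of Etv4 are not independent of it. The mean was 3.25-fold higher in Chronic than in Acute (log2 change 1.68, SE 0.57, limma adjusted p = 0.0293). MEK inhibition lowered it by a log2 change of -2.47 (SE 0.57, limma adjusted p = 0.00458), and between ChronicMEKi and Acute the change was -0.79 (limma adjusted p = 0.346). Leaving out Acute replicate 1, Acute replicate 2 or any single Chronic library ended the call of the rise (limma adjusted p from 0.0599 to 0.0977), as did library totals (1.23, 0.0951) and the deposited scale (1.25, 0.0875). With the replicate number as a block its adjusted p was 0.052. Since 5 was added to each value before taking logs, log2 changes of Etv4 are understated. Etv1, the remaining PEA3 gene, named here after its values were seen, did not pass the filter and ranged from 5.62 to 74.1 over the 9 libraries.

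Ets2, a factor that ERK phosphorylates and whose gene is also induced by mitogens, followed the PEA3 genes with smaller steps. At chr16:95702075-95721051 (plus strand) it gave 419, 351 and 327 in Acute, 657, 687 and 743 in Chronic, and 353, 540 and 454 in ChronicMEKi libraries. The Chronic libraries stood above the rest, and ChronicMEKi and Acute libraries overlapped. The mean rose 1.90-fold from Acute to Chronic (log2 change 0.93, SE 0.20, limma adjusted p = 0.00118) and ChronicMEKi was lower than Chronic by -0.65 (SE 0.20, limma adjusted p = 0.0285). The change between ChronicMEKi and Acute was 0.28 (limma adjusted p = 0.333). Of the 5 Ets2 rows tested, 3 were called higher between Chronic and Acute and 1 lower with MEK inhibition, with changes of -0.83 to -0.41 in the latter. The rise was 0.44 under library totals (limma adjusted p = 0.0883) and 0.46 on the deposited scale (0.0742). The fall was not called without Chronic replicate 2 (limma adjusted p = 0.0692) or 3 (0.0789), ChronicMEKi replicate 1 (-0.54, 0.109) or 3 (0.0679), with no filter (0.0697), under library totals (0.0923) or on the deposited scale (0.099).

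Etv3, an ETS repressor, fell in both steps. Its row at chr3:87525407-87540156 (plus strand) gave 3859, 4429 and 3858 in Acute, 2620, 2832 and 3227 in Chronic, and 1782, 1726 and 1751 in ChronicMEKi libraries. The groups did not overlap in any comparison, and the ChronicMEKi libraries lay within a narrow band. Chronic was lower than Acute by a log2 change of -0.49 (SE 0.10, limma adjusted p = 0.00125), and ChronicMEKi was lower than Chronic by -0.72 (SE 0.10, limma adjusted p = 6.03e-05). The mean in ChronicMEKi was thus 0.43 of that in Acute (log2 change -1.20, SE 0.10, limma adjusted p = 9.16e-08). All 5 Etv3 rows were lower in each comparison, by -0.71 to -0.49 between Chronic and Acute and by -0.72 to -0.68 between ChronicMEKi and Chronic. These rows overlap and largely hold the same signal, so they are not separate measurements.

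The ternary complex factors Elk3 and Elk4 moved in opposite directions. Elk3, which represses until ERK phosphorylates it, lies on the minus strand at chr10:93247414-93311135. It gave 6296, 7203 and 5966 in Acute, 8174, 8716 and 7620 in Chronic, and 5510, 5312 and 5432 in ChronicMEKi libraries, so the 3 groups did not overlap. The mean rose 1.26-fold from Acute to Chronic (log2 change 0.33, SE 0.09, limma adjusted p = 0.00813), a direction that turned under library totals (-0.16) and on the deposited scale (-0.14). The rise was also not called under totals without the ribosomal RNA-like rows (0.18, limma adjusted p = 0.148) or with the trimmed mean taken over all genes (0.34, 0.0525). MEK inhibition lowered Elk3 by a log2 change of -0.59 (SE 0.09, limma adjusted p = 0.000126), which held under each alternative. Between ChronicMEKi and Acute the change was -0.26 (limma adjusted p = 0.0477). The call ended without Acute replicate 2, Chronic replicate 1 or 2, or ChronicMEKi replicate 2 or 3 (limma adjusted p from 0.0502 to 0.112), with no filter (0.0788) or with the trimmed mean over all genes (0.0897). The row shares 30.8% of its length with Cdk17 on the opposite strand, and the use of strand in the deposited values is not stated. An Elk3 row outside that overlap (chr10:93284431-93311135) changed by 0.38 from Acute to Chronic and by -0.71 with MEK inhibition.

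Elk4, which activates immediate early genes together with serum response factor, fell between Acute and Chronic and was the single member called higher with MEK inhibition. Its row at chr1:132017808-132032612 (plus strand) gave 6442, 5956 and 6231 in Acute, 3780, 3652 and 3421 in Chronic, and 4752, 4775 and 4321 in ChronicMEKi libraries. The ChronicMEKi libraries lay between the other groups with no overlap. The mean in Chronic was 0.58 of that in Acute (log2 change -0.78, SE 0.09, limma adjusted p = 1.52e-06). ChronicMEKi was above Chronic by 0.35 (SE 0.09, limma adjusted p = 0.00851) and below Acute by a log2 change of -0.43 (SE 0.09, limma adjusted p = 0.00129). The rise with MEK inhibition was not called without ChronicMEKi replicate 1 (0.27, limma adjusted p = 0.0963) or with the trimmed mean over all genes (0.28, 0.13).

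This Elk4 row, of a transcript annotated for nonsense-mediated decay, shares 66.2% of its length with Mfsd4a, which runs on the opposite strand. The 6 Mfsd4a rows that reach into Elk4 had a mean signal of 2434 to 4198, and the 7 that lie outside it had 23.4 to 158, so most signal listed for Mfsd4a lay where both genes are annotated. Of the 7 Elk4 rows, all were lower in Chronic than in Acute, by -0.79 to -0.66. Many of these rows overlap each other and share signal, so they are not separate measurements. Between ChronicMEKi and Chronic, 4 rows were called higher. They share 67.1%, 66.2%, 19.3% and 5.42% of their length with Mfsd4a, and the row that shares least, 856 bases, changed by 0.30 (limma adjusted p = 0.0302). The 3 Elk4 rows that end before Mfsd4a changed by 0.09 (limma adjusted p = 0.691), 0.09 (0.726) and 0.15 (0.411). Differences between rows were not tested, and RNA from either strand cannot be told apart in these values.

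**Figure D3:**
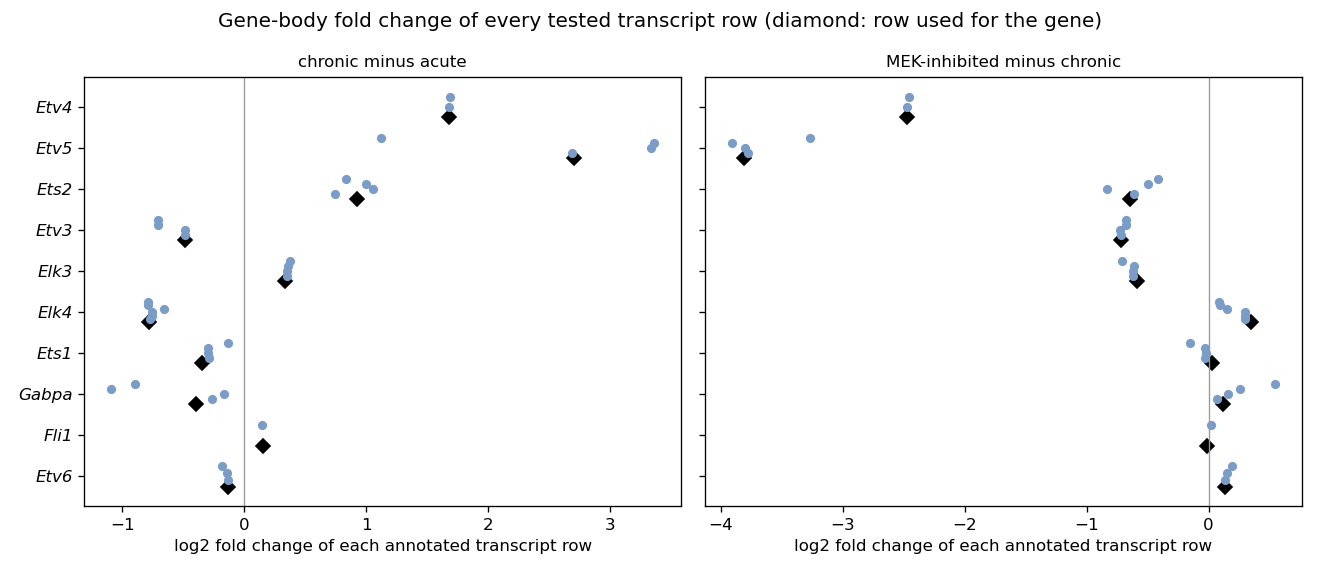
Gene-body log2 fold change of each annotated transcript row that passed the filter, by gene, between Chronic and Acute (left) and between ChronicMEKi and Chronic (right); the diamond is the row used for the gene. Etv5 rows spread from 1.12 to 3.36 on the left, and Elk4 rows lie between 0.09 and 0.35 on the right.

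Ets1 and Gabpa fell between Acute and Chronic and were not called with MEK inhibition. Ets1, a factor of resting lymphocytes that works with RUNX proteins, gave 31235, 31964 and 31110 in Acute, 23876, 25927 and 24475 in Chronic, and 25289, 24669 and 25739 in ChronicMEKi libraries (chr9:32696022-32757820, plus strand). All Acute libraries were above all others, and the Chronic and ChronicMEKi libraries overlapped. The log2 change was -0.35 between Chronic and Acute (SE 0.08, limma adjusted p = 0.00162), 0.03 between ChronicMEKi and Chronic (SE 0.08, limma adjusted p = 0.869) and -0.32 between ChronicMEKi and Acute (SE 0.08, limma adjusted p = 0.00436). On the longest annotated Ets1 transcript, which starts further upstream, the change between Chronic and Acute was -0.13 (limma adjusted p = 0.234). A row confined to that upstream part (chr9:32636239-32651476) carried 1.60 to 22.4 units per library.

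Gabpa, the DNA-binding subunit of GABP, which serves genes of mitochondria and of basic cell functions, gave 2401, 2336 and 2230 in Acute, 1683, 1940 and 1684 in Chronic, and 1990, 1803 and 1946 in ChronicMEKi libraries (chr16:84835124-84863779, plus strand). The Acute libraries again lay above the rest. The log2 change was -0.39 between Chronic and Acute (SE 0.11, limma adjusted p = 0.00708), 0.11 between ChronicMEKi and Chronic (limma adjusted p = 0.544) and -0.28 between ChronicMEKi and Acute (limma adjusted p = 0.0605). The last was called without Acute replicate 2 (-0.33, limma adjusted p = 0.0498) or 3 (-0.37, 0.0376) or Chronic replicate 3 (0.0435), with those groups alone in the fit (0.0359) and under library totals (-0.66, 0.000496), the deposited scale (-0.62, 0.0009) or totals without the ribosomal RNA-like rows (-0.45, 0.00342). Of the 5 Gabpa rows, 2 were called lower between Chronic and Acute, and the other protein-coding row changed by -0.26 (limma adjusted p = 0.0828). The first 502 bases of the row used here overlap the divergent gene Atp5j.

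Fli1 and Etv6 were called in 0 of the 3 comparisons. Fli1, a factor that limits effector T cell differentiation, gave 42300, 46599 and 40431 in Acute, 48952, 51067 and 43762 in Chronic, and 48304, 47471 and 46744 in ChronicMEKi libraries (chr9:32422204-32541595, minus strand). ChronicMEKi libraries were all above Acute libraries, and the Chronic libraries overlapped both groups. The log2 change was 0.15 between Chronic and Acute (SE 0.09, limma adjusted p = 0.187), -0.01 between ChronicMEKi and Chronic (SE 0.09, limma adjusted p = 0.964) and 0.14 between ChronicMEKi and Acute (SE 0.09, limma adjusted p = 0.253). The direction between Chronic and Acute turned under library totals (-0.34, limma adjusted p = 0.0329) and on the deposited scale (-0.32, 0.0394), and without Chronic replicate 3 the change was 0.22 (0.00908).

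Etv6, a repressor also known as TEL, gave 20119, 20201 and 18489 in Acute, 19720, 19761 and 14646 in Chronic, and 20429, 20092 and 18400 in ChronicMEKi libraries (chr6:134035700-134270155, plus strand). The groups overlapped in every comparison, and Chronic replicate 3 was the lowest library. The log2 change was -0.13 between Chronic and Acute (SE 0.10, limma adjusted p = 0.355), 0.13 between ChronicMEKi and Chronic (limma adjusted p = 0.451) and 0.00 between ChronicMEKi and Acute (limma adjusted p = 0.989). The first of these passed the threshold under totals (-0.62, limma adjusted p = 0.00115), on the deposited scale (-0.61, 0.00122) and under totals without the ribosomal RNA-like rows (-0.29, 0.0452). Between ChronicMEKi and Acute, totals gave -0.38 (0.0444).

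Per kb of annotated span, the level of the members covered a wide range, and the order shifted between groups. In Acute libraries Ets1 was first at 509 units per kb, then Elk4 at 419, Fli1 at 361 and Etv3 at 274. Elk3 followed at 102, Etv6 at 83.6, Gabpa at 81.0, Ets2 at 19.3, Etv4 at 2.26 and Etv5 at 1.74. Among neighbours in that order, Etv6 and Gabpa overlapped over the 3 libraries, as did Etv4 and Etv5. In Chronic libraries Fli1 (401) and Ets1 (401) overlapped at the top, followed by Elk4 at 244, Etv3 at 196, Elk3 at 128, Etv6 at 77.0, Gabpa at 61.7, Ets2 at 36.7, Etv5 at 11.9 and Etv4 at 7.35, where Etv6 and Gabpa overlapped. In ChronicMEKi libraries Ets1 (408) and Fli1 (398) overlapped, then came Elk4 at 312, Etv3 at 119, Elk3 at 85.0, Etv6 at 83.8, Gabpa at 66.7, Ets2 at 23.7, Etv4 at 1.17 and Etv5 at 0.838. There Elk3 and Etv6 overlapped, as did Etv4 and Etv5. The level of Elk4 includes the stretch shared with Mfsd4a: its 3 rows that end before Mfsd4a held 239 to 242 units per kb in Acute libraries, below Etv3. Those rows held 138 to 152 in Chronic libraries, again below Etv3, and 148 to 169 in ChronicMEKi libraries, above Etv3.

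**Figure D4:**
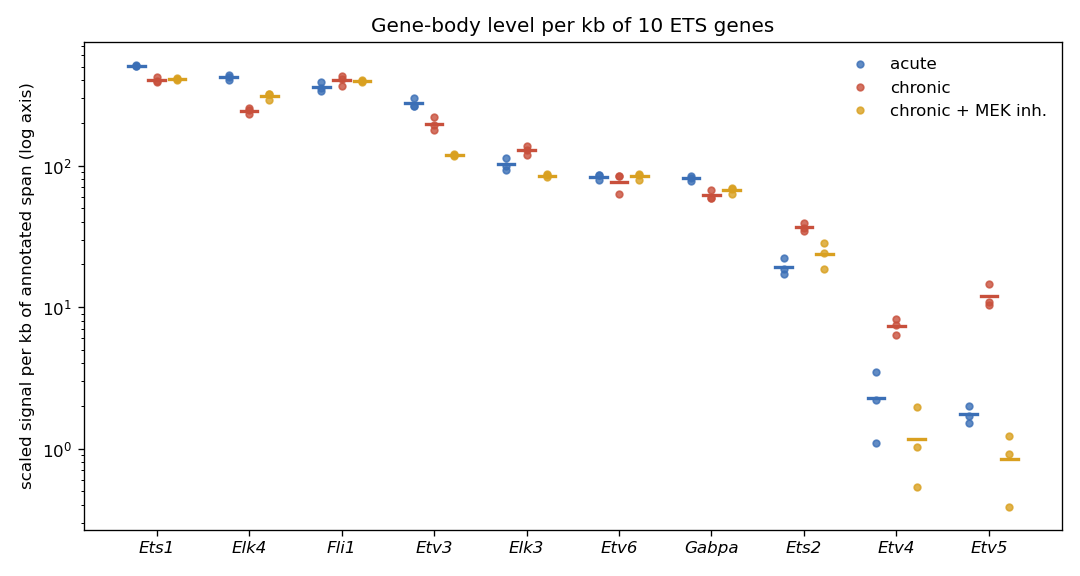
Scaled gene-body signal per kb of annotated span of each gene in every library, on a log axis, coloured by group and ordered by the Acute mean. Ets1, Elk4 and Fli1 lie at the top in each group, and Etv4 and Etv5 at the bottom, with Chronic above the other groups. The Elk4 level is that of the row that shares most of its length with Mfsd4a.

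In the pause region, 7 of the 10 members passed the filter, and Etv4, Etv5 and Ets2 did not, with at most 27.2 units in any library. Between Chronic and Acute limma called 0 of the 7 (10.7% of all 7678 genes tested, 5.37% higher and 5.35% lower), and 1 had an unadjusted p under 0.05. Between ChronicMEKi and Chronic it called 0 (3% of all genes, 1.56% higher and 1.43% lower), again with 1 at an unadjusted p under 0.05, and between ChronicMEKi and Acute it called 1 lower (5.95%, 3.44% higher and 2.51% lower), with 3 at an unadjusted p under 0.05. Over all genes tested, 23%, 13.9% and 18.9% had an unadjusted limma p under 0.05 in these comparisons, in the same order. Groups did not overlap for 0 members higher and 2 lower between Chronic and Acute (24.3% of genes tested), 0 and 1 between ChronicMEKi and Chronic (20.2%), and 1 and 2 between ChronicMEKi and Acute (24.7%). The called gene was Etv3, with 192, 266 and 189 in Acute, 124, 158 and 166 in Chronic, and 63.9, 81.6 and 68.9 in ChronicMEKi libraries, none of which overlapped between groups. The log2 change of Etv3 was -1.52 between ChronicMEKi and Acute (SE 0.30, limma adjusted p = 0.00146), -1.01 between ChronicMEKi and Chronic (SE 0.30, limma adjusted p = 0.059) and -0.51 between Chronic and Acute (SE 0.30, limma adjusted p = 0.315). Without Acute replicate 3 the change of -1.01 was called (limma adjusted p = 0.05 after rounding).

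Elk4 in the pause region gave 409, 333 and 521 in Acute, 320, 177 and 267 in Chronic, and 289, 278 and 231 in ChronicMEKi libraries. All Acute libraries were above the rest. These values are of the Elk4 row used for the gene, which starts at chr1:132017808, inside the gene. The protein-coding row with the most signal starts at chr1:132007607, so the values need not lie close to that start. The Elk4 log2 change between Chronic and Acute was -0.73 (SE 0.24, limma adjusted p = 0.0503), and it was called without Acute replicate 2 (-0.91, limma adjusted p = 0.024) or Chronic replicate 1 (-0.91, 0.0296). It was -1.12 (0.0108) on the protein-coding transcript and -1.33 (0.00108) under library totals, which also brought Ets1 (-0.97, 0.00472) and Etv3 (-1.10, 0.0228) past the threshold. Under those totals the median gene shifted by -0.57 between Chronic and Acute. Ribosomal RNA-like rows took 66.8% to 68.6% of pause-region signal in Acute, 77.7% to 82.6% in Chronic and 73.6% to 80.6% in ChronicMEKi libraries. Etv6 gave 34.4, 31.5 and 4.94 in Acute and 76.0, 83.9 and 39.2 in ChronicMEKi libraries, which did not overlap, with a log2 change of 1.49 (SE 0.62, limma adjusted p = 0.167). Etv6 only just passed the filter, through ChronicMEKi and Chronic libraries, and did not pass with Acute and ChronicMEKi libraries alone. The filter thus favoured this difference, and the lack of overlap is not independent of it. The balance between pause region and gene body within a library was called for 0 of the 7 members in each comparison, as for 0 of 7413 genes in all by limma, the sole tool run on it. For Elk4 the balance was taken on the same row that starts inside the gene. At an unadjusted p under 0.05 there were 749, 394 and 591 genes between Chronic and Acute, ChronicMEKi and Chronic, and ChronicMEKi and Acute, among them 1, 0 and 1 members.

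Of 16 other ETS genes listed, 14 had a row and 4 passed the gene-body filter (Elf1, Elf2, Erf and Erg), whereas Spi1, Spib and the epithelial members stayed below it. Of these 4, limma called 0 between Chronic and Acute (33.9% of all genes tested), and 1 (Elf2) had an unadjusted p under 0.05 (42.9% of all genes). With MEK inhibition it called 1 higher and 1 lower, beside 17.6% of all genes. Between ChronicMEKi and Acute it called 1 higher, beside 25.8%. With MEK inhibition Elf2, an activator of lymphoid genes, rose from 5426, 5572 and 5492 in Chronic to 7537, 6846 and 7483 (log2 change 0.41, SE 0.08, limma adjusted p = 0.00165), with the groups apart. The call was lost with the trimmed mean over all genes (0.34, limma adjusted p = 0.0768). In the pause region Elf2 gave 59.2, 32.6 and 55.3 in Acute, 16.7, 9.34 and 13.1 in Chronic and 103, 99.7 and 107 in ChronicMEKi libraries, a log2 change of 2.60 with MEK inhibition (SE 0.50, limma adjusted p = 0.00171) and of -1.56 between Chronic and Acute (SE 0.50, limma adjusted p = 0.04). Elf2 passed the pause-region filter mainly through ChronicMEKi libraries, where it is high. The filter thus favoured the rise with MEK inhibition, and the test of that rise is not independent of it. The Chronic values are low, near the constant added before taking logs. Neither pause-region call of Elf2 was followed under the alternatives. Elf1 fell with MEK inhibition by -0.26 (limma adjusted p = 0.0465), a call lost without Chronic replicate 1 (-0.19, 0.171) or 2 (0.123) or any one ChronicMEKi library (0.0516 to 0.116), and under every scaling alternative (0.0626 to 0.564). Erf, an ETS repressor that ERK keeps out of the nucleus, was higher in ChronicMEKi than in Acute by 0.68 (SE 0.22, limma adjusted p = 0.0311), a call that ended without Acute replicate 1 (0.42, 0.226) or 3 (0.116), or ChronicMEKi replicate 1 (0.153) or 3 (0.0712). It also ended under library totals (0.29, 0.281), on the deposited scale (0.34, 0.235), under totals without the ribosomal RNA-like rows (0.0757), with no filter (0.076) and with the trimmed mean over all genes (0.0744).

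Partners and regulators of ETS proteins were read from a list of 14 genes, of which 12 had a row and passed the filter. Between Chronic and Acute 1 rose and 2 fell, with MEK inhibition 5 rose and 1 fell, and between ChronicMEKi and Acute 3 were higher and 1 lower. Over all genes tested these comparisons called 33.9%, 17.6% and 25.8%, so 3 of 12 partners between Chronic and Acute is not above the share of all genes. Cic, the repressor of PEA3 genes, gave 2218, 3537 and 2268 in Acute, 3334, 3197 and 2906 in Chronic, and 5192, 4317 and 4176 in ChronicMEKi libraries. The ChronicMEKi libraries stood above the rest, with a log2 change from Chronic of 0.53 (SE 0.15, limma adjusted p = 0.0217) and from Acute of 0.80 (SE 0.15, limma adjusted p = 0.000883). The change from Chronic was not called without Chronic replicate 2 (0.0641) or 3 (0.122), ChronicMEKi replicate 1 (0.38, 0.163), or with the trimmed mean over all genes (0.116). Cic changed by 0.27 between Chronic and Acute (limma adjusted p = 0.193) and by 0.49 (0.00187) without Acute replicate 2.

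Atxn1, a co-repressor that binds Capicua, rose from 27589, 29428 and 25834 in Acute to 48449, 45685 and 32134 in Chronic and stood at 22802, 22545 and 20252 in ChronicMEKi libraries. The log2 change was 0.59 between Chronic and Acute (SE 0.12, limma adjusted p = 0.00137) and -0.92 with MEK inhibition (SE 0.12, limma adjusted p = 4.14e-05). The rise was 0.10 under library totals (0.637) and 0.11 on the deposited scale (0.57). Among the RUNX genes, whose proteins pair with Ets1 on DNA, Runx1 fell by -1.17 between Chronic and Acute (SE 0.13, limma adjusted p = 1.52e-06). With MEK inhibition Runx2 rose by 0.56 (SE 0.11, limma adjusted p = 0.00162), Runx3 by 0.86 (SE 0.18, limma adjusted p = 0.00671) and Runx1 by 0.43 (SE 0.13, limma adjusted p = 0.0265). Against Acute, ChronicMEKi libraries had Runx1 lower by -0.75 (limma adjusted p = 0.00028), Runx2 higher by 0.74 (7.7e-05) and Runx3 higher by 0.57 (0.0428). The Runx3 difference from Acute lost its call without Acute replicate 1 (0.105) or 3 (0.153) or ChronicMEKi replicate 1 (0.135) or 2 (0.0734). It was also not called under library totals (0.18, 0.507), on the deposited scale (0.22, 0.431), under totals without the ribosomal RNA-like rows (0.40, 0.141), with no filter (0.253), with those groups alone in the fit (0.0508) or with the trimmed mean over all genes (0.0664). The Runx2 difference from Acute was 0.36 (0.0562) under library totals. The Runx3 rise with MEK inhibition was not called without Chronic replicate 3 (0.64, 0.0685) or with no filter (0.106). That of Runx1 lost its call without Acute replicate 1, Chronic replicate 2 or 3, or ChronicMEKi replicate 1 or 2 (0.0558 to 0.146). The Runx1 rise was also not called under 1 of the 11 other alternatives.

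Cbfb, the shared subunit of RUNX proteins, rose by 0.29 with MEK inhibition (limma adjusted p = 0.0475), a call lost when any one of 7 libraries was left out (0.0994 to 0.211) and 0.16 without Chronic replicate 3. The Cbfb call was also lost under library totals (limma adjusted p = 0.0551) and under totals without the ribosomal RNA-like rows (0.0738). The same held with no filter (0.0648), with those groups alone in the fit (0.0901) and with the trimmed mean over all genes (0.311). Gabpb2, a partner of Gabpa, fell by -0.27 between Chronic and Acute (limma adjusted p = 0.0236), not called without Acute replicate 2 (0.0906) or Chronic replicate 1 (0.0528). The Gabpb2 call was also lost under 1 of the 11 other alternatives. The Srf change was 0.31 between Chronic and Acute (limma adjusted p = 0.0894), -0.22 with MEK inhibition (0.314) and 0.09 between ChronicMEKi and Acute (0.69). Of 20 listed genes that are a common output of ERK signalling, none of them ETS genes, 19 passed the filter. In Chronic against Acute libraries 8 of these rose and 3 fell, with MEK inhibition 0 rose and 13 fell (median log2 change -1.17, beside 0.04 over all genes), and between ChronicMEKi and Acute 5 were higher and 7 lower. The shares called over all genes were again 33.9%, 17.6% and 25.8%.

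For each member called with MEK inhibition, the genes whose profile over the 9 libraries was most like it were found by the root mean square difference of log2 signal, centred on each gene's own mean, among 10736 genes. For Etv5 these were Neb (0.42), Calcrl (0.51) and Klrc2 (0.54), and for Etv4 they were P2ry12 (0.24), Ptk2 (0.34) and Morn4 (0.35). Ets2 was nearest to Zfp12, Mmd and Cdkl4 (0.14 to 0.15), Etv3 to Vim, Slc17a9 and Peli1 (0.14 to 0.15) and Elk3 to Chd7, Shq1 and Orai2 (0.05 to 0.07). Elk4 was nearest to Mfsd4a (0.02), the gene it overlaps, then to Gmeb1 (0.04) and Avl9 (0.06). The Etv5 profile itself had a root mean square spread of 1.65 and that of Elk3 one of 0.25, so these distances are not on a common footing. Neb gave a mean of 880 in Acute, 5617 in Chronic and 615 in ChronicMEKi libraries, against 102, 695 and 48.9 for Etv5.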

How the data were processed

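Nascent RNA labelled with 5-ethynyl uridine was captured and sequenced from 9 libraries of mouse CD8+ T cells. The authors deposited signal per transcript in 2 tables, whose region limits and use of strand are not given in the sources used here. Low deposited signal values came in whole steps (1 step was 0.764 to 1.06, by library; tolerance 0.01 steps), and 4 steps occurred more often than 3 or 5 (26623, 9846 and 8796 values), so the values were not treated as read counts. Per the submitters' processing notes, FastQC 0.12.0, Trim Galore 0.6.10, STAR 2.7.0a, SAMtools 1.19.2, deepTools 0.1.9, R 4.1.2 and the build mm10 were used.

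Of 118482 rows, 117346 matched GENCODE M21 (GRCm38) by identifier and version, 383 without the version, and 753 did not match. Per gene, the row whose gene-body signal had the largest mean was kept. Genes on the sex chromosomes were not analysed here. A gene was tested where 3 or more libraries reached a signal of 50. Scaling, done per table over those genes, used a trimmed mean of log ratios with no weights (30% trimmed at each end by log ratio, 5% by mean level). Group means of log2(signal + 5) were estimated over the 9 libraries in one limma model (3.58.1, R 4.3.3, trend and robust moderation), with Benjamini-Hochberg adjustment over all genes tested and a threshold of 0.05. Pausing used the difference of log2 signal between the tables. Single transcript rows were tested in the same model, in which the members' other rows were added. Many rows of a gene overlap and share signal, so counts of rows are not counts of separate measurements. The script was tested on simulated data. Python 3.11.15 and pandas 2.3.3 joined the tables.

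All 10 members are named. From the lists of other ETS genes and of partners, genes called in the gene body, Cic and Srf are named. Likeness took 3 genes per member with a mean signal of at least 100, leaving out Gm, Rik and LOC symbols. Members, lists and tests were chosen with earlier results of these data known. Same-numbered replicates were checked for pairing and did not deviate together across all groups.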

Additional observations from a re-analysis of the deposited data

How the results depend on the processing

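Alternatives were a pseudocount of 0.5 or 20, no filter, scaling by totals, by totals without ribosomal RNA-like rows or not at all, the replicate block, only the groups compared, the longest transcript and each library left out; the trimmed mean over all genes and the protein-coding transcript were added after seeing the data. For single genes, leaving out 1 library kept 814 values on their side of the threshold, with 19 newly called and 49 no longer called. The other alternatives kept 978, with 51 newly called, 45 no longer called and 9 reversed. The sign also turned in 31 and 53 of the kept values, which were not called either way. The reversals that involve a call came from scaling. Between Chronic and Acute under totals and on the deposited scale, Elk3 gave -0.16 and -0.14, Fli1 -0.34 and -0.32, Elf1 -0.39 and -0.37, and Atxn1l -0.48 and -0.47. Between ChronicMEKi and Acute, Etv6 gave -0.38 under totals. The cause was not tested.

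The count of members called in the gene body between ChronicMEKi and Acute was 5, but 3 with no filter, 4 with the trimmed mean over all genes, 6 on the deposited scale or under totals without ribosomal RNA-like rows, and 7 under totals. In the pause region between Chronic and Acute it was 0, but 1 with a pseudocount of 20, with the replicate block, on the longest transcript, with the trimmed mean over all genes and on the protein-coding transcript, and 3 under totals. Between ChronicMEKi and Acute it was 1, or 2 under totals. With a library left out these counts ranged from 0 to 1 between Chronic and Acute and from 0 to 1 between ChronicMEKi and Chronic. Same-numbered libraries had correlations of their deviations from -0.53 to 0.10 in the gene body, so the numbers do not pair them across all groups. Between Acute and Chronic these correlations were 0.07 to 0.10, against -0.08 to -0.01 for unlike numbers. Pairs of unlike number ranged from -0.37 (Acute replicate 3 with ChronicMEKi replicate 1) to 0.51 (Acute replicate 2 with ChronicMEKi replicate 1). The main model treats the libraries as independent, and links between libraries of unlike number were not modelled. With the replicate block, members called in the gene body between Chronic and Acute were 7 in place of 8 (Etv4 was lost). Depth in reads is unknown, and the low signal of Etv4 and of the pause regions limits what could be called.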
